A study of Mus musculus with 16 samples.

Results

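The Hox genes are described here in normal mouse skin and in skin carcinomas that lack p53 or p53 and pRb. A probeset was taken when the array annotation gave it a single gene symbol made of Hoxa, Hoxb, Hoxc or Hoxd and a number, and where a gene had several, the one of highest mean over the arrays stands for it. This gave 33 genes of the 18193 genes on the array, 9 in the Hoxa cluster on chromosome 6, 9 in Hoxb on chromosome 11, 7 in Hoxc on chromosome 15 and 8 in Hoxd on chromosome 2. RNA was hybridised to Affymetrix MOE430 2.0 arrays, and the values are log2 signals, so that a difference of 1 is a doubling.

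All mice had the FVB background. The 4 control skin samples were wild type skin, the 7 p53 tumors arose in k14Cre;p53loxP/loxP mice, and the 5 pRbp53 tumors in k14Cre;p53loxP/loxP;pRbloxP/loxP mice. The keratin 14 promoter drives Cre in stratified epithelia, so the stroma in a tumor sample keeps the floxed genes. By histology 3 p53 tumors (2, 4 and 5) were poorly differentiated, p53 tumor 3 was undifferentiated, p53 tumor 6 was a spindle cell carcinoma, and p53 tumors 1 and 7 were mixed. Of the pRbp53 tumors, numbers 1, 2, 3 and 5 were spindle and number 4 was mixed. The labels give neither the age of the mice nor the body site of any sample, and no source states whether each sample is a different animal. The p-values thus describe spread among these samples, which may be technical. Body site, which Hox genes follow, and genotype therefore cannot be told apart.

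Hox genes code for homeodomain transcription factors that give cells of the embryo their position along the body axis. In each cluster the genes stand in the order of their paralog numbers. Low numbers are used toward the head and high numbers toward the tail and the ends of the limbs, and in adult skin, fibroblasts above all keep a Hox pattern that follows body site. Hoxc13 is an exception, with a known part in the hair follicle, where it drives hair keratin genes.

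The median log2 signal of the arrays lay between 5.63 and 5.76. The samples differed in what tissue they held. Over 7 keratinocyte genes the mean log2 signal was 12.29 to 12.59 in control skin and 4.83 to 12.14 in the tumors, with the defining keratins Krt5 and Krt1 lower by 5.48 and 7.74 in tumors (limma adjusted p = 0.0271 and 3.01e-05). Over 7 skeletal muscle genes it was 12.29 to 12.50 in control skin and 4.57 to 8.47 in the tumors. The milk protein gene Csn2 exceeded a log2 signal of 8 in 5 arrays, control skin 3 and p53 tumors 2 to 5. Csn3, another milk protein gene, was 9.96 to 14.28 in these 5 and 10.01 in p53 tumor 7. It was 6.84 in p53 tumor 6, 6.34 in control skin 4 and 3.99 to 4.87 in the rest. Fits without the arrays with Csn2 above 8 thus keep some milk protein signal. Actin probesets at both transcript ends gave a 3' minus 5' log2 difference, a sign of RNA breakdown, of 0.21 to 0.68 in 14 arrays, 1.33 for control skin 3 and 1.67 for p53 tumor 7. Rb1, floxed in the pRbp53 mice, had log2 signals of 7.57 to 8.50 in p53 tumors and 7.10 to 7.94 in pRbp53 tumors, which overlap (difference -0.36 ± 0.19, SE, limma adjusted p = 0.601), so it does not check the labels. The part of these differences in the Hox values was not tested. In bulk samples, fewer cells of a type and less RNA per cell cannot be told apart.

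The promoters of 4 Hoxa genes are shown because Hoxa7 carried the steadiest difference from control skin and because Hoxa9, Hoxa11 and Hoxa13 were high together in p53 tumor 6. The sequences are from RefSeq (GRCm38.p6), a window around each gene's start, on the minus strand, namely Hoxa7 at chr6:52218524-52218823, Hoxa9 at chr6:52227321-52227620, Hoxa11 at chr6:52245761-52246060 and Hoxa13 at chr6:52260831-52261130. They run 5′ to 3′ with each CG dinucleotide in capitals.
Hoxa7: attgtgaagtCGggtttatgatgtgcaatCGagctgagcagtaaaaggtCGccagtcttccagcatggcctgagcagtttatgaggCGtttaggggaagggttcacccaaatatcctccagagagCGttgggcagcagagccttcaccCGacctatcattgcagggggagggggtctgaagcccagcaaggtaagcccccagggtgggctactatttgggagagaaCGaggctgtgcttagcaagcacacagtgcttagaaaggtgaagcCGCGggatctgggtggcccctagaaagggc
Hoxa9: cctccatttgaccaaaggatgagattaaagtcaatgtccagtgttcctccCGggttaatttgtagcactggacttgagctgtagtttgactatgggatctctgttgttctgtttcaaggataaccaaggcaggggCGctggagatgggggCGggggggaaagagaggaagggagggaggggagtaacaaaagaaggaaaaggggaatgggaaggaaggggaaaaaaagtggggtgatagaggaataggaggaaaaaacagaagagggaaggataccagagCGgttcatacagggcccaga
Hoxa11: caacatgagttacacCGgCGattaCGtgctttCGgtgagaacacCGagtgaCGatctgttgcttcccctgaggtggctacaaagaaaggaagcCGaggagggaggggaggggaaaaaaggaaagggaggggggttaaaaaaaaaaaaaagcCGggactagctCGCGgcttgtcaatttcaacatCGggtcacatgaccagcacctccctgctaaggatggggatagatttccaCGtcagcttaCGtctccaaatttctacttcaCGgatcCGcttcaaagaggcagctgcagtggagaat
Hoxa13: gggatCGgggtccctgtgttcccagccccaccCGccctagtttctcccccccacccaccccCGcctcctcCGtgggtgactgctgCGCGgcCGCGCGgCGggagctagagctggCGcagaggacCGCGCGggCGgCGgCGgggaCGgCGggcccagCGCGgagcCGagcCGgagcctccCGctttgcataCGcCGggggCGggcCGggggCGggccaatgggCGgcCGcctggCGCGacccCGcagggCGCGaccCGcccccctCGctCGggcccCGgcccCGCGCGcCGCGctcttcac

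CG dinucleotides numbered 9 in the Hoxa7 window, 4 in Hoxa9, 15 in Hoxa11 and 45 in Hoxa13. Over the 21 windows found for 19 of the 33 Hox genes the median was 15, against 7 over all 32851 windows of the table. The letters TTTATG, a core that posterior Hox proteins can bind, stood on either strand in 3 of the 21 windows (14.3%, against 11.9% of all), among them that of Hoxa7. TGATNNAT, a core of Pbx and Hox dimers, also stood in 3 (14.3%, against 8.85% of all). These matches are descriptions and not sites.

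In control skin the genes whose own probesets stood above background in all samples ended at Hoxa9, Hoxb6 and Hoxd9 in their clusters and at Hoxc13 in the Hoxc cluster. Background was read on each array as the 95th percentile of 81 probesets for odorant, pheromone and trace amine receptors, which lay between 4.62 and 5.0. In control skin 17 of the 33 Hox genes lay above this line in all 4 samples, where 58.8% of all probesets did. These were Hoxa3, Hoxa5, Hoxa7 and Hoxa9, Hoxb2 to Hoxb6, Hoxc4, Hoxc5, Hoxc6, Hoxc8, Hoxc9 and Hoxc13, and Hoxd8 and Hoxd9. Hoxc10 lay above it in 3 control samples, Hoxd13 in 2 and Hoxb9 in 1. Hoxa10, Hoxa11, Hoxa13, Hoxb13 and Hoxd10 to Hoxd12, all of the posterior end, lay under the line in every control sample. So did Hoxa2, Hoxa4, Hoxb1, Hoxb7, Hoxd1 and Hoxd3, which are not of the posterior end. Hoxb8 and Hoxd4 have no probeset of their own, and probesets that they share with a neighbour stood above the line in control skin. The one of Hoxb8 and Hoxb7 was 5.62, 5.31, 8.91 and 5.83 in control skin 1 to 4, highest in control skin 3, and 4.35 to 5.29 in the p53 tumors. The pair for Hoxd4 and Hoxd3 gave 5.21 to 5.93 and 4.97 to 7.50 in control skin. A shared probeset does not say which of its genes gave the signal.

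In 6 of the 7 p53 tumors fewer Hox genes stood above background than in any control sample. Their number was 18 or 19 in each control sample. It was 14, 12, 15, 14, 13, 18 and 16 in p53 tumors 1 to 7, and 18, 19, 16, 21 and 19 in pRbp53 tumors 1 to 5. Only p53 tumor 6 among the p53 tumors reached a control value, and the pRbp53 tumors spanned the control values. Of all probesets, 61.8% to 64.9% lay above the line in the control arrays, 59.0% to 63.3% in the p53 tumors and 60.2% to 64.0% in the pRbp53 tumors. The line at the 99th percentile left 14 to 16 Hox genes in control skin, 3 to 14 in p53 tumors and 14 to 16 in pRbp53 tumors. Of all 33, 9 lay above the line in every array (Hoxa5, Hoxa7, Hoxb2, Hoxb4, Hoxc4, Hoxc6, Hoxc9, Hoxd8 and Hoxd9) and 8 in none (Hoxa2, Hoxa4, Hoxb1, Hoxb7, Hoxd1, Hoxd3, Hoxd11 and Hoxd12). The own probesets of these 8 read at the level of background, which for Hoxb7 and Hoxd3 does not hold for the shared probesets above. These counts carry no test, and since probes differ in affinity the line is a description.

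**Figure D1:**
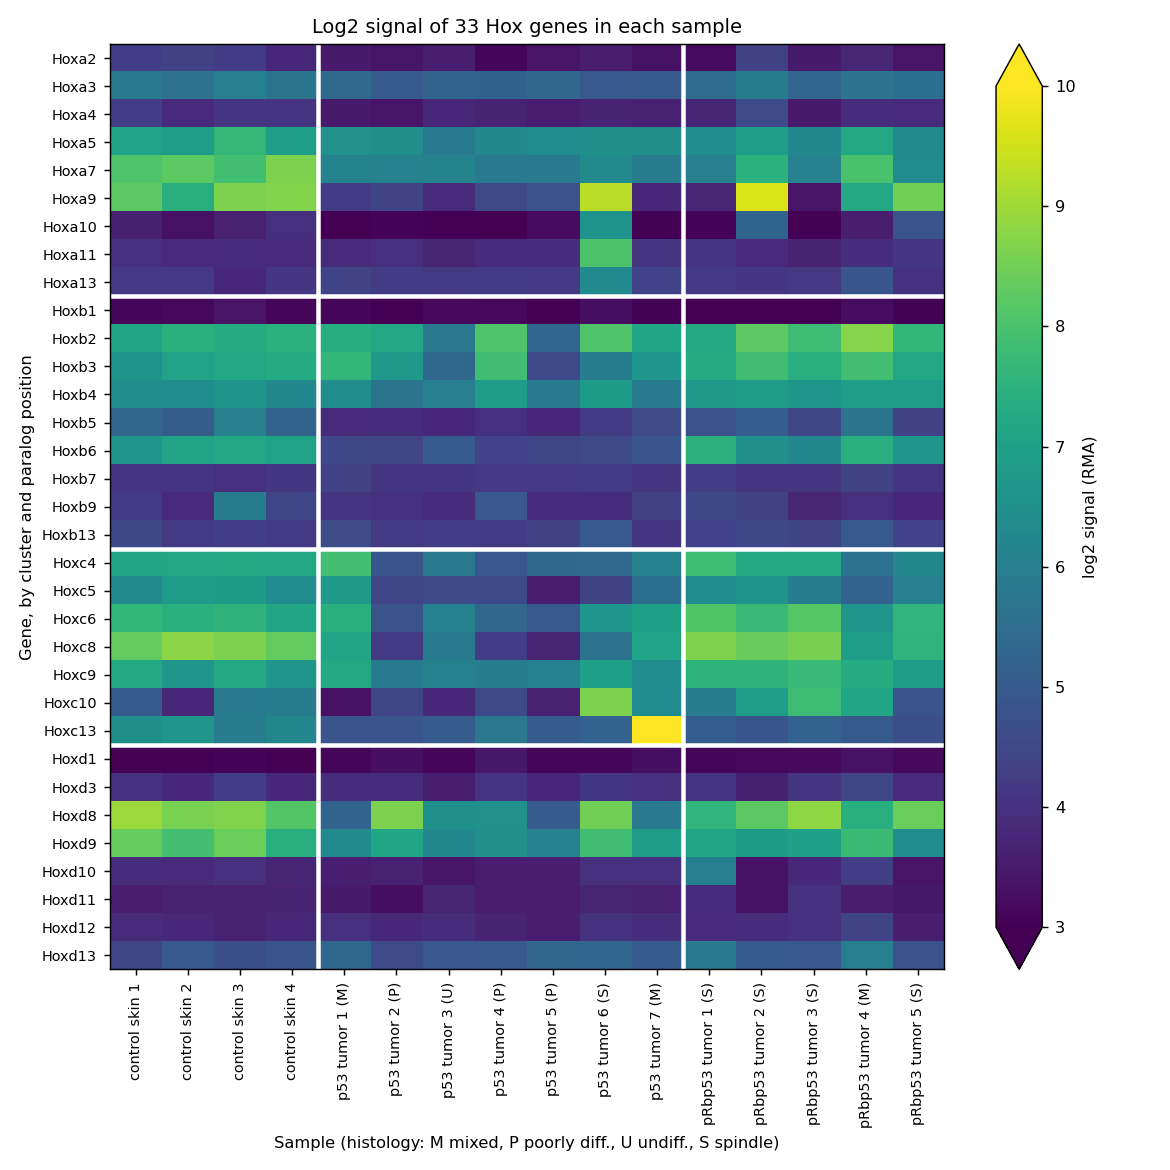
Log2 signal (colour) of the 33 Hox genes (rows, by cluster and paralog position) in the 16 samples (columns, by group, with tumor histology in brackets). Colours compare samples within a row and not genes with each other. Hoxb6 is dark in the 7 p53 tumors, and among these p53 tumor 6 stands out at Hoxa9 to Hoxa13.

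The comparison of all 12 tumors with the 4 control skin samples asked how the carcinomas differ from normal skin. Hoxa7, Hoxd9, Hoxb5, Hoxa2 and Hoxa5 had lower signals, that of Hoxa2 below the background line in every array, and no Hox gene rose. These were 5 of 33 genes, where 13.2% of all probesets passed at an adjusted p of 0.05, 6.85% lower and 6.36% higher. The median log2 difference was -0.14 over the Hox genes and 0.07 over all 45037 probesets. By position it was -0.66 over the 19 genes of positions 1 to 8 and 0.03 over the 14 of positions 9 to 13. Single differences ran from -2.01 to 0.20 in the first set and from -2.62 to 0.45 in the second. Both sets hold genes that lay under the background line in every control sample. A lower signal of such a gene, as of Hoxa2 in the first set, does not show a fall. In the second set the genes under the line were Hoxa10, Hoxa11, Hoxa13, Hoxb13 and Hoxd10 to Hoxd12. Its median thus does not show that posterior genes kept their level.

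Hoxa7, a gene of the middle of its cluster, had log2 signals of 8.08, 8.25, 7.89 and 8.63 in control skin. In the p53 tumors it ran from 5.85 to 6.31 with a median of 6.11, and in pRbp53 tumors 1 to 5 it was 6.04, 7.48, 6.10, 7.98 and 6.39. All tumors but pRbp53 tumor 4 lay below the lowest control sample, so the groups overlapped by that sample. The difference was -1.85 ± 0.33 (SE, limma adjusted p = 0.00141), a 3.60-fold lower signal. Each genotype was then set against the same control samples. The p53 tumors were lower by 4.47-fold (-2.16 ± 0.15, adjusted p = 3.46e-06) and the pRbp53 tumors by 2.67-fold (-1.42 ± 0.41, adjusted p = 0.0431).

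Hoxd9, the paralog of Hoxa9 in the Hoxd cluster, had log2 signals of 8.34, 7.90, 8.40 and 7.41 in control skin. The p53 tumors ran from 6.10 to 7.86 with a median of 6.50, and pRbp53 tumors 1 to 5 had 7.10, 6.80, 6.99, 7.78 and 6.38. Only p53 tumor 6 and pRbp53 tumor 4 reached into the control range. The difference of all tumors was -1.17 ± 0.30 (SE, limma adjusted p = 0.0166). Hoxb5 had 5.30, 5.08, 6.04 and 5.23 in control skin, 3.81 to 4.61 with a median of 3.93 in p53 tumors, and 4.74, 5.09, 4.47, 5.68 and 4.37 in pRbp53 tumors 1 to 5. All 7 p53 tumors lay below control skin, while pRbp53 tumors 2 and 4 lay within it (-1.04 ± 0.30, SE, limma adjusted p = 0.0337). Without control skin 1 and, in turn, without control skin 3, a single Hox gene (Hoxa7) passed in this comparison, and without control skin 2 there were 3. Without control skin 3 and p53 tumor 7 together 2 passed, and without the 5 arrays with Csn2 above 8 Hoxa7 alone did.

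Hoxa5 was read by 2 probesets that differed in size of effect. The probeset of higher mean had log2 signals of 7.04, 6.94, 7.65 and 6.89 in control skin, 5.92 to 6.54 with a median of 6.46 in p53 tumors, and 6.37, 6.90, 6.28, 7.21 and 6.34 in pRbp53 tumors 1 to 5 (-0.66 ± 0.19, SE, limma adjusted p = 0.0277). The other probeset had 8.07, 8.64, 8.72 and 8.64 in control skin. In the p53 tumors it ran from 3.67 to 4.70 with a median of 4.12, and in pRbp53 tumors 1 to 5 it was 4.48, 7.64, 3.79, 7.47 and 5.10. By this second probeset all tumors lay below control skin, a pattern that 3.79% of all probesets had, and pRbp53 tumors 2 and 4 stood well above the other tumors. Its difference was -3.73 ± 0.66 (SE, limma adjusted p = 0.00113). Hoxa2, whose signals stayed below the background line in every array, had 4.30, 4.38, 4.25 and 3.78 in control skin, 3.10 to 3.59 with a median of 3.40 in p53 tumors, and 3.22, 4.39, 3.50, 3.75 and 3.38 in pRbp53 tumors 1 to 5 (-0.67 ± 0.18, SE, limma adjusted p = 0.0201).

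**Figure D2:**
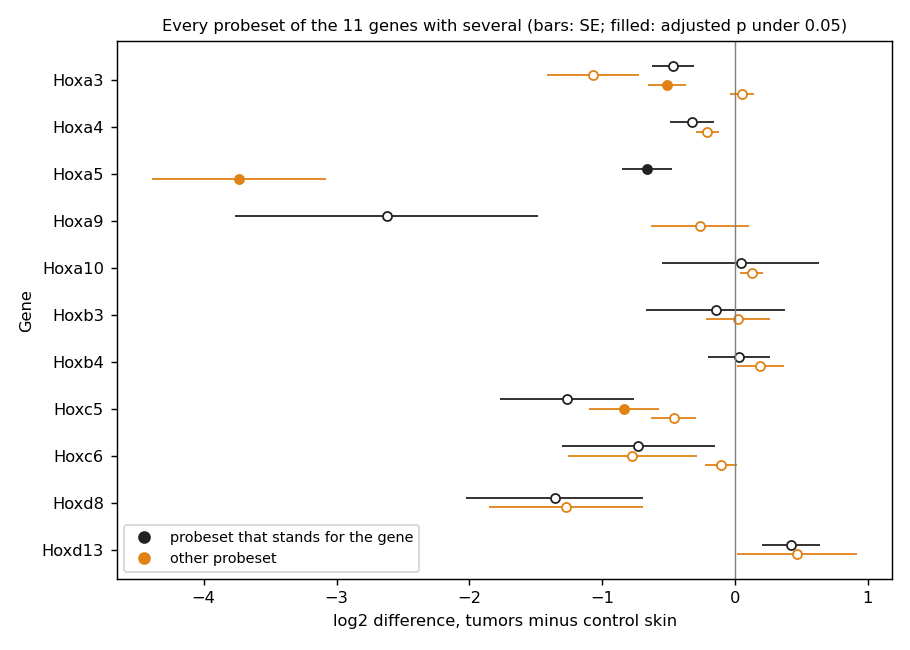
Log2 difference of tumors from control skin (horizontal axis, with SE) for every probeset of the 11 Hox genes that have several (vertical axis). Black marks the probeset that stands for the gene and orange the others, and filled points passed an adjusted p of 0.05. The probesets of Hoxa5 lie at -0.66 and -3.73, and those of Hoxa9 at -2.62 and -0.26.

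The genotypes were also set against the same control samples one at a time. In p53 tumors 11 of the 33 Hox genes fell and none rose, where 10.7% of all probesets passed, 5.91% lower and 4.74% higher. In pRbp53 tumors 3 fell and 1 rose, where 18.3% of all probesets passed, 9.72% lower and 8.57% higher. The median log2 difference of the Hox genes was -0.45 in p53 tumors and 0.02 in pRbp53 tumors, against 0.07 and 0.06 over all probesets. Over 7 dermal fibroblast genes the median was -1.77 in p53 tumors and -0.16 in pRbp53 tumors. The part of fibroblast content in the Hox differences was not tested. The 11 genes were Hoxa2, Hoxa3, Hoxa4, Hoxa5, Hoxa7, Hoxa9, Hoxb5, Hoxb6, Hoxc5, Hoxc8 and Hoxd9. Hoxa2 and Hoxa4 lay below the background line in every array, so their lower signals do not show a fall. For 8 of the 11 no p53 tumor reached the control range, where 5.37% of all probesets were lower with no overlap. Both contrasts share the control samples, and the difference between the genotypes is tested further on.

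Hoxb6, a gene of the middle of the Hoxb cluster, had the smallest adjusted p of these. Its log2 signals in control skin were 6.70, 7.10, 7.18 and 7.04, and in the p53 tumors they ran from 4.40 to 4.97 with a median of 4.48. Only p53 tumor 3, at 4.97, lay above the background line of its array. With the line in place of values under it, the signal was at least 4.42-fold lower than in control skin (-2.41 ± 0.14 as measured, SE, limma adjusted p = 9.03e-07). Hoxc8 had 8.31, 8.78, 8.61 and 8.32 in control skin and 3.73 to 7.08 with a median of 5.63 in p53 tumors, again with no overlap (-3.09 ± 0.65, SE, limma adjusted p = 0.0123). Hoxb5, with its values above, lay below background in all 7 p53 tumors and was at least 1.48-fold lower (-1.39 ± 0.21, SE, limma adjusted p = 0.00157). Hoxc5 had 6.35, 6.84, 6.82 and 6.40 in control skin and 3.58 to 6.76 with a median of 4.55 in p53 tumors (-1.77 ± 0.49, SE, limma adjusted p = 0.0428), and p53 tumor 1 lay within the control range. Its call was lost in 9 of 11 fits that left out 1 array, and its other probesets did not pass (-0.96 ± 0.33 and -0.57 ± 0.20). Hoxd9 was lower by 2.45-fold (-1.29 ± 0.33, SE, limma adjusted p = 0.0311), a call lost in 6 of these 11 fits. For Hoxa2, Hoxa3, Hoxa4 and Hoxa5 the differences lay between -0.77 and -0.45, with Hoxa2 and Hoxa4 below the background line in every array, and for the second probeset of Hoxa5 the difference was -4.38 ± 0.19 (SE, limma adjusted p = 5.7e-08), with all 7 p53 tumors below background. The call of Hoxa4 was lost in 3 of the 11 fits. The other probesets of Hoxa3, below background in all p53 tumors, did not move alike. They read 4.91 to 5.62, 3.55 to 4.46 and 3.93 to 4.25 in control skin. In p53 tumors they read 3.61 to 4.23, 3.07 to 3.59 and 3.98 to 4.33 in the same order. Without the arrays with Csn2 above 8, which leaves 3 control samples and 3 p53 tumors, 2 of the 11 genes passed, Hoxa7 and Hoxb6. Without control skin 1 and, in turn, without control skin 3, 7 Hox genes were lower.

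Hoxc13 and Hoxb4 passed in the pRbp53 tumors. Hoxc13 had log2 signals of 6.48, 6.65, 5.95 and 6.22 in control skin and 5.08, 4.88, 5.19, 4.99 and 4.69 in pRbp53 tumors 1 to 5. Every pRbp53 tumor lay below every control sample, a pattern that 9.71% of all probesets had, and the signal, above background in 4 of the 5, was 2.56-fold lower (-1.36 ± 0.16, SE, limma adjusted p = 5.1e-04). In p53 tumors 1 to 6 Hoxc13 was 4.83 to 5.77, also below control skin, and in p53 tumor 7 it was 10.41. Hoxb4, of the anterior part of its cluster, had 6.44, 6.41, 6.63 and 6.28 in control skin and 6.80, 6.83, 6.69, 6.88 and 6.88 in pRbp53 tumors 1 to 5. It was higher in all 5, with no overlap, as were 9.92% of all probesets, by 1.30-fold (0.38 ± 0.10, SE, limma adjusted p = 0.0307), and it no longer passed when control skin 1, 2 or 4 or pRbp53 tumor 1, 2 or 5 was left out. Hoxa7 was lower as given above, and Hoxd9 differed by -1.0 ± 0.30 (SE, limma adjusted p = 0.0455). Each of these calls was lost in 7 of 9 fits that left out 1 array, whereas that of Hoxc13 was kept in all 9.

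**Figure D3:**
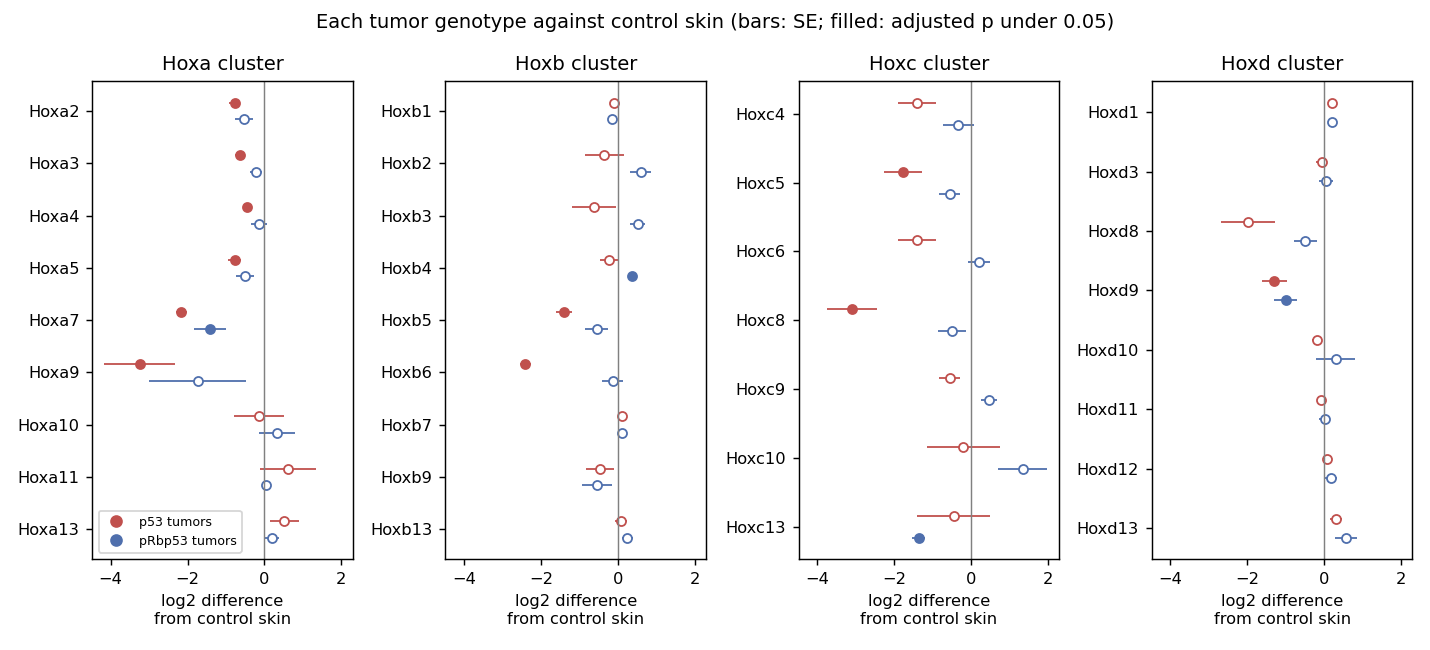
Log2 difference from control skin (horizontal axes, with SE) of p53 tumors (red) and pRbp53 tumors (blue) for the Hox genes of each cluster (vertical axes, by paralog position). Filled points passed an adjusted p of 0.05, 11 of them in p53 tumors and 4 in pRbp53 tumors; the contrasts share the control samples.

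The direct comparison of the genotypes asked which genes differ between pRbp53 and p53 tumors. Hoxb6 alone passed, at an adjusted p of 0.1, where 0.198% of all probesets passed, 0.127% higher and 0.0711% lower. Its log2 signals in pRbp53 tumors 1 to 5 were 7.51, 6.52, 6.23, 7.42 and 6.71, around those of control skin, and no p53 tumor exceeded 4.97. The groups did not overlap, a pattern that 0.446% of all probesets had in this direction, and the difference was 2.28 ± 0.22 (SE, limma adjusted p = 0.00203). As 6 of the 7 p53 tumors lay below background, the signal was at least 4.06-fold higher in pRbp53 tumors. Against control skin the pRbp53 tumors differed by -0.12 ± 0.27 (SE, limma adjusted p = 0.812).

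Histology differs between the genotypes, with 4 of 5 pRbp53 tumors and 1 of 7 p53 tumors being spindle. Hoxb6 was 4.55 in the spindle p53 tumor and 6.23 to 7.51 in the spindle pRbp53 tumors, a difference of 2.19 ± 0.50 (SE, limma adjusted p = 0.371, the 1 p53 sample being assumed to vary like the others). It was 4.48 and 4.83 in the mixed p53 tumors and 7.42 in the mixed pRbp53 tumor. With histology as a covariate the difference was 2.24 ± 0.27 (SE, limma adjusted p = 0.0257). Without the arrays in which Csn2 exceeded 8, which leaves 3 p53 tumors, it was 2.26 ± 0.32 with an adjusted p of 0.206. The last and the spindle tumors alone gave no call, and the part of histology was not tested beyond these values.

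The other Hox genes did not pass between genotypes. In all, 26 of 33 had a higher mean in pRbp53 tumors and the median difference was 0.43, against -0.01 over all probesets; 11 had an unadjusted p under 0.05, as had 9.29% of all probesets. By cluster the median was 0.31 for Hoxa, 0.60 for Hoxb, 1.21 for Hoxc and 0.18 for Hoxd. The largest single differences were 1.51, 2.28, 2.60 and 1.49 in the same order. Genes below the background line in every array, which Hoxa, Hoxb and Hoxd hold and Hoxc does not, enter these medians. Hoxc8 differed most, by 2.60 ± 0.64 (SE, limma adjusted p = 0.212). Over the dermal fibroblast genes, with 7 measured, the median difference in the same contrast was 1.62, and none passed. Whether fibroblast content moves these Hox values was not tested.

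The comparison by grade set the 6 undifferentiated or spindle tumors against the 3 poorly differentiated tumors. Hoxc8 and Hoxc6, neighbours in the Hoxc cluster, were higher in the undifferentiated or spindle tumors and none was lower. These were 2 of 33 genes, where 7.39% of all probesets passed, 3.4% higher and 3.99% lower. The median difference was 1.61 over the 7 Hoxc genes, 0.32 over Hoxa, 0.45 over Hoxb and 0.22 over Hoxd, against 0.01 over all probesets. The largest single differences were 3.38, 1.80, 1.64 and 1.29 in the same order. Hoxd1, Hoxd3, Hoxd11 and Hoxd12 lay below the background line in every array, as did Hoxa2, Hoxa4, Hoxb1 and Hoxb7, but no Hoxc gene. Such genes enter the medians, which therefore do not rank the clusters.

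Hoxc8 had log2 signals of 4.18, 4.29 and 3.73 in p53 tumors 2, 4 and 5, the poorly differentiated ones. In the undifferentiated or spindle tumors the lowest value was 5.63, the median 7.97 and the highest 8.65. The groups did not overlap, and the difference was 3.38 ± 0.74 (SE, limma adjusted p = 0.0273). Since all 3 poorly differentiated values lay below the background lines of their arrays, the signal was at least 6.51-fold higher, the line standing in for values under it. Hoxc6 had 4.80, 5.31 and 4.95 in the poorly differentiated tumors and 6.08 to 8.15 with a median of 7.68 in the others, again without overlap (2.37 ± 0.46, SE, limma adjusted p = 0.0169). A second probeset of Hoxc6 also passed (1.86 ± 0.44, SE, limma adjusted p = 0.0364) and the other one did not (0.20 ± 0.16). Hoxc4, Hoxc9 and Hoxb6 did not overlap either but did not pass, and 6.99% of all probesets were higher without overlap.

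All poorly differentiated tumors were p53 tumors, and 4 of the 6 others were pRbp53 tumors. Within the p53 tumors Hoxc8 was 5.89 in the undifferentiated and 5.63 in the spindle tumor, against at most 4.29 in the poorly differentiated ones, a difference of 1.69 ± 0.23 (SE, limma adjusted p = 0.0476). Hoxc6 differed by 1.36 ± 0.27 there (SE, limma adjusted p = 0.0963). Both differences were smaller than over all 9 tumors. Of the 7 dermal fibroblast genes 6 were also higher by grade, with a median of 2.91, and the mean log2 signal of the list was 8.28 to 10.12 in the poorly differentiated and 11.65 to 13.27 in the undifferentiated or spindle tumors. Of 4 leukocyte genes 3 were higher. Their part in the Hoxc values was not tested. Csn2 exceeded 8 in all 3 poorly differentiated tumors and in 1 of the other 6, p53 tumor 3, and its part was not tested. Hoxc8 lost its call when p53 tumor 2, 4 or 5 or pRbp53 tumor 2 or 5 was left out, and Hoxc6 when p53 tumor 2 was.

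**Figure D4:**
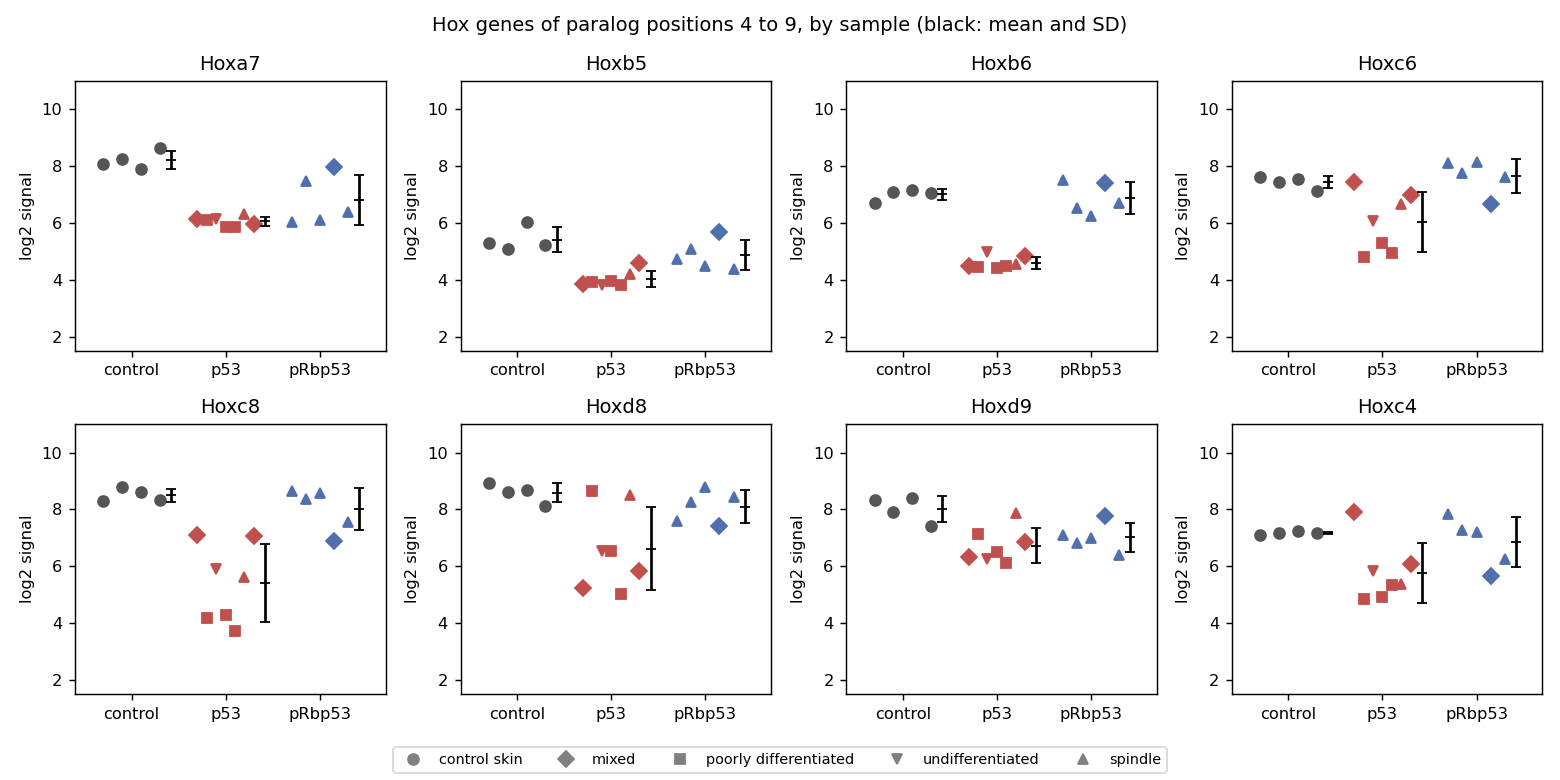
Log2 signal (vertical axes) of 8 Hox genes in control skin, p53 tumors and pRbp53 tumors (horizontal axes), 1 point per sample, shaped by histology, with the group mean and SD in black. The p53 tumors do not reach 5 for Hoxb6, and the poorly differentiated tumors (squares) lie lowest for Hoxc8.

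Several Hox genes varied widely from tumor to tumor. The median range over the 12 tumors was 1.87 for the Hox genes and 1.27 for all probesets. Each Hox gene was read by its probeset of highest mean, while all probesets were not so chosen, so these medians are not like for like. The 8 widest Hox genes were Hoxa9, Hoxc13, Hoxc10, Hoxc8, Hoxa11, Hoxa10, Hoxd8 and Hoxb2. They were chosen for their range, which is given as a description with no test.

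Hoxa9, of the first posterior position, took very unlike levels in the tumors. Control skin had 8.23, 7.38, 8.62 and 8.70. The p53 tumors 1 to 7 had 4.21, 4.45, 3.83, 4.53, 4.80, 9.27 and 3.79, and pRbp53 tumors 1 to 5 had 3.74, 9.61, 3.38, 7.22 and 8.52. The tumors lay on both sides of a gap, 8 of them at or below 4.80 and 4 at or above 7.22. In p53 tumors against control skin the difference was -3.25 ± 0.92 (SE, limma adjusted p = 0.0472), a call that was lost in 10 of 11 fits that left out 1 array; only without p53 tumor 6 did it hold. Its second probeset ran from 5.01 to 7.41 in the tumors, with its highest values also in p53 tumor 6 (7.41) and pRbp53 tumor 2 (6.76), and differed from control skin by -0.26 ± 0.37 (SE, limma adjusted p = 0.702) over all tumors.

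The genes beside Hoxa9 toward the posterior end were high in p53 tumor 6, a spindle cell carcinoma. Hoxa10 was 6.57 there and 2.71 to 3.22 in the other p53 tumors, 3.07, 5.26, 3.03, 3.59 and 4.81 in pRbp53 tumors 1 to 5 and 3.61, 3.31, 3.64 and 3.98 in control skin. A second Hoxa10 probeset did not show this, with 3.56 in p53 tumor 6 and 3.16 to 3.71 in the other samples, all below background. Hoxa11, a gene of the limb and the urogenital tract in the embryo, was 8.05 in p53 tumor 6 and 3.71 to 4.10 in all other samples. Hoxa13, used in the ends of the limbs and the hindgut, was 6.33 there and 3.82 to 4.87 elsewhere, its next value being that of pRbp53 tumor 4. The antisense transcript Hoxa11os was 6.45 in p53 tumor 6 and 3.36 to 3.85 in the other samples by the same probeset, while a second probeset gave 3.50 there and 2.92 to 3.51 in the others. Since these signals come from a single array, they have no replicate check. At Hoxa7, the same tumor had 6.31, within the range of the tumors.

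Hoxc10, Hoxd8 and Hoxb2 varied in other tumors too. Hoxc10, used in the hindlimb and lumbar region of the embryo, was 4.99, 3.82, 5.88 and 5.98 in control skin. It was 3.35, 4.45, 3.79, 4.54, 3.65, 8.61 and 6.41 in p53 tumors 1 to 7 and 5.96, 6.91, 7.79, 7.11 and 4.83 in pRbp53 tumors 1 to 5, highest again in p53 tumor 6. Hoxd8 was 8.94, 8.60, 8.68 and 8.14 in control skin. In p53 tumors 1 to 7 it was 5.23, 8.63, 6.52, 6.55, 5.01, 8.50 and 5.84, with tumors 2 and 6 at the control level, and in pRbp53 tumors 1 to 5 it was 7.60, 8.25, 8.80, 7.43 and 8.43. Hoxb2, of the anterior end of its cluster, was 7.11 to 7.48 in control skin, 7.35, 7.17, 5.80, 8.07, 5.28, 8.08 and 7.15 in p53 tumors 1 to 7 and 7.26, 8.25, 7.81, 8.74 and 7.62 in pRbp53 tumors 1 to 5. Its 2 lowest values were in p53 tumors 3 and 5, which also had the lowest Hoxb3 (5.37 and 4.58). Both arrays were among those with Csn2 above 8, as were p53 tumors 2 and 4, in which Hoxb2 was 7.17 and 8.07.

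Hoxc13 was 10.41 in p53 tumor 7, a mixed tumor, against 4.83 to 5.77 in the other p53 tumors and 5.95 to 6.65 in control skin. This array had the highest 3' minus 5' actin signal, and the part of RNA quality in the value was not tested. Over 7 keratinocyte genes the same sample had a mean log2 signal of 12.14, the highest of the tumors. Over 12 genes of the hair shaft and matrix it had 5.01, also the highest of the tumors and within the 4.90 to 5.13 of control skin. Krt33a, Krt34, Krt35 and Krt86 of this list lay below the background line in every array, so the mean says little about hair genes. Among the others, Krt32 (6.13) and Msx2 (5.69) were highest of the tumors in this sample, while Krt81 (6.72) was lowest. Krt32 was 6.39 to 6.58 in control skin. A link of these genes to Hoxc13 was not tested.

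At the posterior end of the Hoxd cluster, 2 pRbp53 tumors had the highest Hoxd13 signals, and 1 of them the highest Hoxd10. Hoxd13 lay above the background line in 12 arrays and Hoxd10 in 1. Hoxd10 was 6.02 in pRbp53 tumor 1 and 3.34 to 4.31 in all other samples. Hoxd13, used in digits and external genitalia, was 5.90 in pRbp53 tumor 1 and 6.02 in pRbp53 tumor 4 and 4.47 to 5.35 in the others. Its second probeset gave 6.21 and 6.34 in the same tumors and 3.63 to 4.45 in the rest. In pRbp53 tumor 4, Hoxb13 was 4.95, near the background line, and 2 homeobox genes outside the clusters were high, Six2 at 10.08 (5.40 to 6.28 elsewhere) and Dlx5 at 10.86 (4.93 to 6.96 elsewhere).

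**Figure D5:**
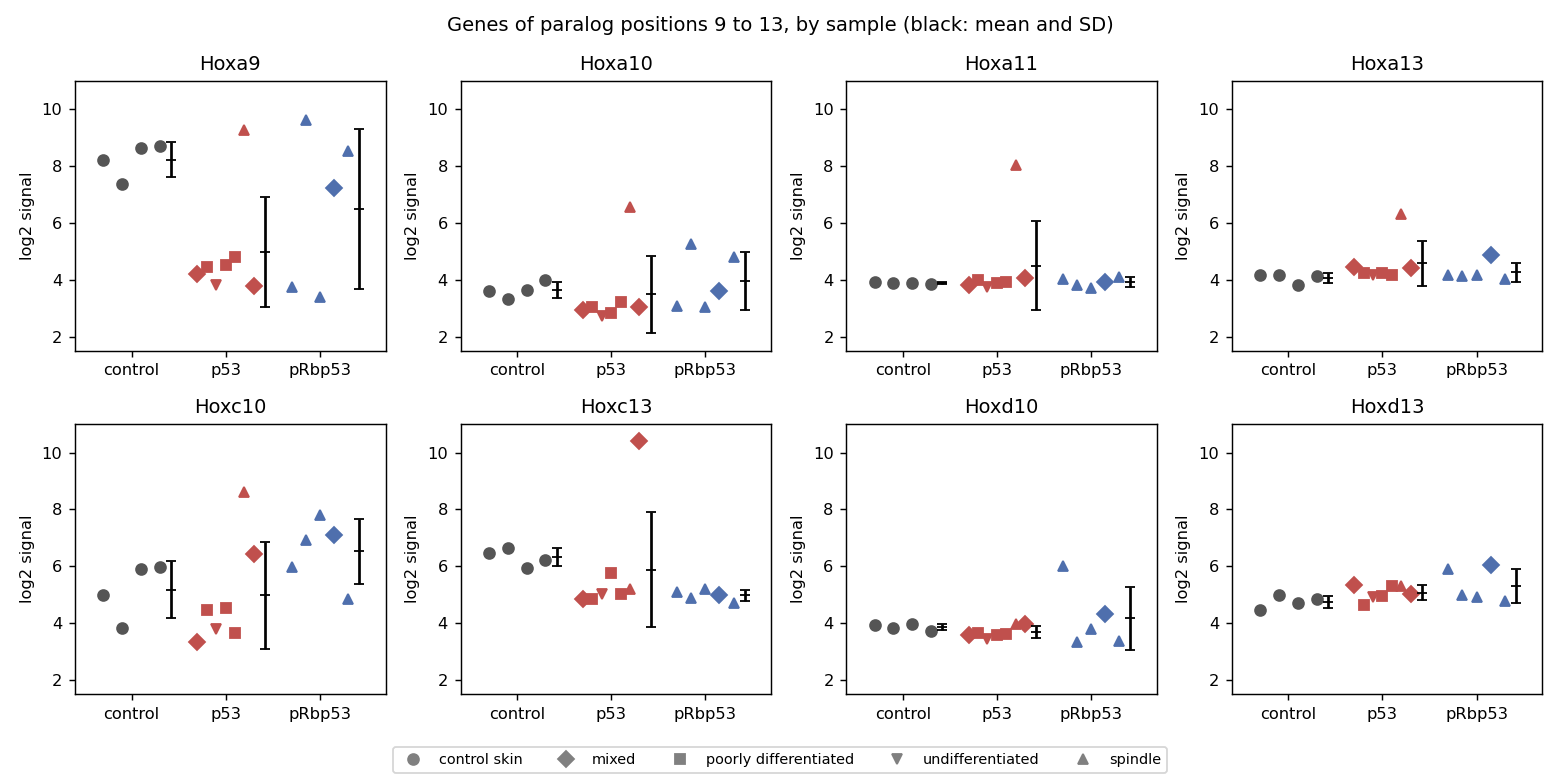
Log2 signal (vertical axes) of 8 Hox genes of paralog positions 9 to 13 in control skin, p53 tumors and pRbp53 tumors (horizontal axes), 1 point per sample, shaped by histology, with the group mean and SD in black. p53 tumor 6, the only red triangle that points up, is the highest point for Hoxa10, Hoxa11, Hoxa13 and Hoxc10, and p53 tumor 7 for Hoxc13.

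Genes that work with or on the Hox clusters were read from lists. Of all probesets 13.2% passed in tumors against control skin and 7.39% by grade. Whether any list held more than this share was not tested. Of 8 measured Hox cofactors, partners of Hox proteins on DNA, Pbx3 was the 1 that passed in tumors against control skin, higher by 1.73 ± 0.34 (SE, limma adjusted p = 0.00261). By grade Meis2 rose by 3.29 ± 0.39 (SE, limma adjusted p = 0.00172). Of 23 chromatin regulators of the clusters, Phc1 and Suz12, both of Polycomb complexes, rose in tumors by 1.45 ± 0.26 and 0.72 ± 0.16, and Cbx7, also of Polycomb, fell by 1.49 on the log2 scale. By grade Rbbp5 and Ring1 were lower. Of 16 genes beside the clusters, Cbx1 (beside Hoxb) and Cbx5 (beside Hoxc) rose and Skap1 (beside Hoxb) fell in tumors, and by grade Hibadh and Tax1bp1 (both beside Hoxa) were lower. No gene of these lists passed between the genotypes at an adjusted p of 0.1.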

How the data were processed

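RNA from 4 control skin samples, 7 p53 tumors and 5 pRbp53 tumors was measured on 1 Affymetrix MOE430 2.0 array each. The deposited values are log2 signal intensities that the authors made with RMA, which corrects background, normalizes all arrays to 1 distribution and summarises probes, so low signals are compressed; its version is not given in the sources used here. An array gives no depth; precision depends on how many arrays a group has. Of 45101 probesets 64 array controls were left out and 45037 tested. The array annotation of 2016 gave 1 symbol for 34945, several for 932 and none for 9160. Names, order and promoters are from RefSeq (GRCm38.p6).

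Samples were grouped by title and histology label. limma 3.58.1 (R 4.3.3; lmFit, eBayes) was fitted to every probeset with Benjamini-Hochberg adjustment over all of them, two-sided, at 0.05, or 0.1 between genotypes, and tested on simulated data. Tables and figures were made with pandas 2.3.3 and matplotlib 3.10.9. Full values are given for Hox genes that passed, at most 8 each way per comparison, and the 8 with the widest range over tumors. Other genes are named where they passed in a list. Single posterior genes, Six2, Dlx5, Hoxa11os and the probesets shared by 2 Hox genes were named after their values were seen. Members and lists were chosen with earlier results of these data known. Alternatives covered normalization, filters, the prior, array weights, a Welch test, the probeset, subsets of samples, the replicate block and leaving out each array. Trp53 is not reported here.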

Additional observations from a re-analysis of the deposited data

Results flagged for a closer look

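Within each group of samples, the value farthest from the rest was examined for the 33 Hox genes. Of 99 groups examined 11 held a value that stood apart by Dixon's ratio. For a single group chance gives about 1 in 20. The groups share the same arrays and neighbouring genes, so the 11 are not separate events and their count was not tested against chance.

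p53 tumor 6 stood apart in 4 neighbouring genes of the Hoxa cluster, Hoxa9 at 9.27 (3.79 to 4.80 in the other p53 tumors), Hoxa10 at 6.57 (2.71 to 3.22), Hoxa11 at 8.05 (3.74 to 4.07) and Hoxa13 at 6.33 (4.17 to 4.43). pRbp53 tumor 4 stood apart in Hoxa13 at 4.87 (4.03 to 4.17 in the other pRbp53 tumors), Hoxb13 at 4.95 (4.40 to 4.50) and Hoxb1 at 3.22 (2.96 to 3.04), the last far below the background line. p53 tumor 7 stood apart in Hoxc13 at 10.41 (4.83 to 5.77), p53 tumor 1 in Hoxc4 at 7.91 (4.84 to 6.08) and p53 tumor 4 in Hoxb9 at 4.90 (3.90 to 4.32). Control skin 3 was low in Hoxa13 at 3.82 (4.12 to 4.16), under the background line. Each value comes from 1 array, and none was repeated.

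The difference of Hoxb6 from control skin differed between the genotypes, by 2.28 on the log2 scale (limma adjusted p = 0.00203, tested between the tumors directly).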

How the results depend on the processing

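Hoxa7 passed in all 31 alternatives of tumors against control skin and in all 24 of p53 tumors against control skin, Hoxb6 in all 24 of the latter and in 24 of 28 between genotypes, and Hoxc13 in all 20 of pRbp53 tumors against control skin. None of the Hox genes called in a comparison changed direction in these; the genes named from other lists were not run. Among tumors and control skin 5 Hox genes fell. The count was 3 with the replicate block, 3 over brighter probesets, 9 with array weights and 10 with a Welch test. It was 2 without control skin 3 and p53 tumor 7 and 8 with genotypes of equal weight. It was 1 at an adjusted p of 0.01, 1 without the arrays with Csn2 above 8 and 1 to 7 leaving out each array. None rose except 1 each with median centring, a trended and robust prior, array weights and a Welch test (0 to 0 leaving out each array). Between genotypes 1 rose. The count was 0 with the block, a Welch test and without the milk arrays. It was 2 with array weights, 3 with control skin in the fit and 1 to 2 leaving out each array (2 without p53 tumor 1). The fit of spindle tumors only holds a single p53 tumor, number 6, in which posterior Hoxa genes were high, so its counts are left out. By grade 2 rose; the count was 0 with the block, 1 with a Welch test, 1 among p53 tumors only and 0 to 3 leaving out each array; without the milk arrays no poorly differentiated tumor is left. In p53 tumors 11 fell, 6 with the block, 6 over brighter probesets, 2 without the milk arrays and 7 to 12 leaving out each array. In pRbp53 tumors 1 rose, 0 over brighter probesets, with the trended prior, with a Welch test and with control skin 2 and 4 averaged, 2 with array weights and 0 to 1 leaving out each array. There 3 fell, 5 with the mean of a gene's probesets, 1 with the block, a Welch test, control skin 2 and 4 averaged, without control skin 3 and p53 tumor 7 and without the milk arrays, and 1 to 3 leaving out each array. The cause of these changes was not tested, beyond fewer samples or probesets in some. The mean number of Hox genes above background in control skin became 15.0 with the 99th percentile and 17.5 with the mean of probesets, in p53 tumors 8.43 with the 99th percentile, and in pRbp53 tumors 15.0 and 16.6.

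Of 13 pairs of samples with the same replicate number, 3 correlated above 0.1, with r from -0.23 to 0.25 over the 13. Pairs with different numbers were not set beside them, so whether the replicate numbers pair the samples was not tested. With the replicate block Hoxb6 differed between genotypes by 2.32 (adjusted p = 0.145). Control skin 2 and 4 differed by a median of 0.12 over probesets, other control pairs by 0.23 to 0.27. Leaving out the milk arrays (Csn2 above 8), leaving out p53 tumors 6 and 7, and taking the probeset of widest range were chosen after seeing the data. The first keeps p53 tumor 7, in which Csn3 was 10.01. Where a group lies below the background line, its fold is a lower bound.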

Other observations

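Genes of body position outside the Hox clusters were read from a list of 16 measured genes. Of all probesets 13.2% passed in tumors against control skin, 7.39% by grade and 10.7% in p53 tumors against control skin. The lists below were not tested against these shares. In tumors against control skin Otx1, a homeobox gene of the head, rose by 0.58 ± 0.16 (SE, limma adjusted p = 0.026), from a mean log2 signal of 3.70 to one of 4.28, both below the background line. By grade Tbx18 (2.92 ± 0.42, SE, limma adjusted p = 0.00476) and En1 (2.79 ± 0.43, SE, limma adjusted p = 0.00658) were higher in undifferentiated or spindle tumors, and Lmx1b (-1.57 ± 0.29, SE, limma adjusted p = 0.0131) and Barx2 (-0.77 ± 0.11, SE, limma adjusted p = 0.005) were lower. None passed between genotypes. The limb regulator Pitx1 was 6.92 in p53 tumor 1 and 4.52 to 5.40 in all other samples, and Tbx4, a hindlimb factor, was 5.15 in p53 tumor 4 and 3.77 to 4.37 elsewhere. In p53 tumor 6, where posterior Hoxa genes were high, they were 5.27 and 4.36. Of 10 upstream and related homeobox genes, Evx2, which lies beside Hoxd13, passed in tumors (0.36 ± 0.08, SE, limma adjusted p = 0.00586), from a mean log2 signal of 4.35 to one of 4.70, near the background line. Pknox2, a cofactor, was lower in p53 tumors than in control skin (-1.59 ± 0.15, SE, limma adjusted p = 4.98e-05). In pRbp53 tumor 2, with the highest Hoxa9, the muscle regulator Myod1 was 10.19, against 4.70 to 5.75 in the other samples.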
